A study of Mus musculus with 8 samples.

Results

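The nuclear-encoded subunits of the oxidative phosphorylation system were described by respiratory complex in mouse liver tumours and in adenovirus-infected mouse liver. Members were all probe sets annotated to a single gene symbol that began with Ndufa, Ndufb, Ndufc, Ndufs or Ndufv and a number, with Uqcr, with Cox4 to Cox8 or with Atp5, and the genes Sdha, Sdhb, Sdhc and Sdhd. On the tumour arrays this gave 164 of 45101 probe sets and 81 of 18194 genes. By complex these were 33 genes of complex I, 4 of complex II, 8 of complex III, 19 of complex IV and 17 of complex V, with Ndufa4 and Ndufa4l2 counted in complex IV. On the smaller array used for the adenovirus livers there were 147 of 22690 probe sets and 78 of 12394 genes. A further 9 probe sets on the tumour arrays and 7 on the adenovirus arrays matched but carried several symbols and were not used.

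All mice were p53-/- on a C57BL/6J background. The tumour arrays held 3 hepatocellular carcinomas from mTERC- mice, which lack the telomerase RNA, and 3 from mTERC+ mice, all from HBs transgenic animals aged 12 to 15 months, with 1 tumour per array. The promoter that drives HBs is not given in the sources used here. The other 2 arrays held liver RNA taken 48 h after intravenous adenovirus, 1 for Ad TRF2DBDM, which encodes a truncated, dominant-negative form of the telomere protein TRF2, and 1 for the Ad GFP control, each pooled from 3 mice. The spread between the pooled mice was thus not measured. The tissue label reads hepatocytes, whereas the series design names liver and tumour RNA. Hepatocyte markers were at high signals in all tumours, with Alb, serum albumin, at 38450 to 50192 in mTERC- tumours and 42039 to 53965 in mTERC+ tumours. Macrophage, neutrophil, endothelial and stellate markers were present as well.

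Oxidative phosphorylation couples the oxidation of fuel to the making of ATP in the inner mitochondrial membrane. Complex I takes electrons from NADH and complex II takes them from succinate. Coenzyme Q carries them to complex III and cytochrome c carries them on to complex IV, where oxygen is reduced. The proton gradient built on the way drives complex V, the ATP synthase. Complexes I, III, IV and V also hold subunits made from mitochondrial DNA, whereas complex II is wholly nuclear-encoded and is an enzyme of the citric acid cycle too. Hepatocytes are rich in mitochondria. In telomerase-deficient mice, telomere dysfunction has been linked to lower levels of the PGC-1 coactivators of mitochondrial genes by way of p53, which was absent from every mouse here.

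The arrays had been scaled to the same trimmed mean signal of 150, in MAS5 expression signals on a linear scale, but mTERC- tumour 2 stood apart. Its median signal was 75.1, against 54.5 to 59.4 on the other 5 tumour arrays, and its mean correlation with the other tumour arrays, across probe sets, was 0.788, against 0.835 to 0.847 for each of those. On that array the ratio of the 3' to the 5' control probe set was 13.8 for Gapdh, against 0.983 to 1.18 on the other 5 tumour arrays, and 2.28 for Actb, against 1.30 to 1.64. The 18S control signal was 319 and 349 on mTERC- tumours 2 and 3, against 11010 to 27810 on the other 4. The number of arrays limits the precision of every value below, and tumours of a group are taken as separate samples, 1 per mouse as the series design gives 3 mice a group.

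The promoters of the members that the results turn on are shown first, because genes of nuclear-encoded subunits are known to share activator sites there. Of the 81 genes, 66 had an entry in the RefSeq promoter table (GRCm38.p6), with 71 promoters of 250 bases before and 50 bases after the start. The sequences below run 5' to 3'. Capitals mark a match, on either strand, to GCGCNTGCG (the core of the site of NRF1, an activator of nuclear genes for respiration), CCGGAAG (the core of ETS sites, bound by GABP among others) or AAGATGGC (the site of YY1). The promoter of Sdha lies at chr13:74350191-74350490 on the minus strand, that of Sdhb at chr4:140961021-140961320 on the plus strand, and that of Sdhd at chr9:50603800-50604099 on the minus strand. These are 3 of the 4 genes of complex II, which stood apart in 1 tumour. The promoters of Atp5o (chr16:91931581-91931880 on the minus strand) and Ndufa9 (chr6:126849095-126849394 on the minus strand) are shown because the probe sets that represent them were also low in that tumour, and Ndufa9 had the highest ratio of complex I in the adenovirus livers.
Sdha: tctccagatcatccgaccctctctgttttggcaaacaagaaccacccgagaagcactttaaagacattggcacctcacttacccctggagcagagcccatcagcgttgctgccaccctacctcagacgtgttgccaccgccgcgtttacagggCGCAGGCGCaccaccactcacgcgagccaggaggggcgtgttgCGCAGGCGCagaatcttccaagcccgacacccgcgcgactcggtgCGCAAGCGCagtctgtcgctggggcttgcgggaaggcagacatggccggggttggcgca
Sdhb: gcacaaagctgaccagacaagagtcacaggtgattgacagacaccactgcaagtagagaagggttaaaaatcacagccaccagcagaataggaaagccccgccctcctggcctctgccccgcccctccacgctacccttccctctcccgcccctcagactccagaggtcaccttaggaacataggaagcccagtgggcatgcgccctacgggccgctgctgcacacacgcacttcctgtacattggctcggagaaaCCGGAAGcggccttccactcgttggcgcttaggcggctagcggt
Sdhd: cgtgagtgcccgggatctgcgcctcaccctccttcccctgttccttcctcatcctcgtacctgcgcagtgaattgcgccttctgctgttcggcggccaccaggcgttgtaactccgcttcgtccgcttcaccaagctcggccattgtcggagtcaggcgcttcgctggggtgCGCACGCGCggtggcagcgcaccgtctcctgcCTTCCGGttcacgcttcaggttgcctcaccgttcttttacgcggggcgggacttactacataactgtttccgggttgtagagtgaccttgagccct
Atp5o: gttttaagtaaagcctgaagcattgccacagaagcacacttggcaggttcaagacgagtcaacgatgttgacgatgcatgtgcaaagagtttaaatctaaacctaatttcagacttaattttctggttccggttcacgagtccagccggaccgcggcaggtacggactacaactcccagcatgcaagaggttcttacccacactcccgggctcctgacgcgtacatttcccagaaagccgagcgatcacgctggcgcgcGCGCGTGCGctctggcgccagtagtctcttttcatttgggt
Ndufa9: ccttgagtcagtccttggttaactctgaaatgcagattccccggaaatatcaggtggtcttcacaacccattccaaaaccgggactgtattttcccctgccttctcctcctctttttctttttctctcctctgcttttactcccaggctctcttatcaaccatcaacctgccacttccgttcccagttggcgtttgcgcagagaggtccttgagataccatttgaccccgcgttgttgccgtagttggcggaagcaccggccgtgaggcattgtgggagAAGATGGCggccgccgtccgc

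The Sdha promoter held 3 matches to the NRF1 letters, and the Sdhd promoter held 1 match to them and 1 to the ETS letters. Sdhb had 1 ETS match, Atp5o 1 NRF1 match and Ndufa9 1 YY1 match. The promoters of Ndufa4, Cox7a2l and Atp5g1, also represented by probe sets low in mTERC- tumour 2, are not shown and held no match. Sdhc and Uqcrc2, low there too, had no promoter entry. Of the 71 member promoters, 32.4% held the NRF1 letters, 23.9% the ETS letters, 12.7% the YY1 letters and 57.7% at least 1 of the 3. Over all 32851 promoters of the table the shares were 6.31%, 8.86%, 2.75% and 16.0%. The median GC content was 58.3% in the member promoters and 52.7% in all. Promoters of the mitochondrial ribosome held at least 1 motif in 57.5% of cases and those of the cytosolic ribosome in 55.1%. By complex the share was 56.2% of 32 promoters for complex I, 80% of 5 for complex III, 23.1% of 13 for complex IV and 72.2% of 18 for complex V. A match describes the letters only and is not a shown binding site.

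The first question was how subunit levels differed between mTERC- and mTERC+ carcinomas. No subunit gene passed the test. Genes were tested if their mean level, as log2(signal + 32), reached the median level of the array's probe sets, which kept 77 of the 81 members, and Cox4i2, Cox7b2, Cox7c and Cox8b stayed out. At an adjusted p below 0.05 in limma, 0 of the 77 were called, where 0.00835% of the 11979 genes tested were called. Only Sdha had an unadjusted p below 0.05 (1 of 77 members, 604 of all genes). The mean was lower in mTERC- tumours for 34 members and higher for 43, and 48.6% of all genes tested were lower. The median log2 difference, mTERC- minus mTERC+, was 0.03 over the members and 0.02 over all genes, and the members ranged from -0.98 to 0.59. Centring each array on its median turned the members' median to -0.03 and that of all genes to -0.04. Markers of other cells did differ in level between these tumours. The 10 macrophage markers summed to 9360 to 15172 in mTERC- and 9474 to 48878 in mTERC+ tumours, and the 7 neutrophil markers to 9005 to 21843 in mTERC- and 343 to 2963 in mTERC+ tumours; their part in the subunits' values was not tested.

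The spread between tumours sets what such a comparison can show. The median standard error of a member's log2 difference was 0.33, against 0.45 over all genes, so that the 95% interval of a typical member reached 1.63-fold to either side. The highest of the 6 tumours exceeded the lowest by a median of 1.84-fold over the members and 2.74-fold over all genes. Among members this ranged from 1.28-fold for Ndufc2 to 6.63-fold for Atp5o. The groups did not overlap for 5 members, or 6.49%, against 10.1% of all genes tested. Non-overlap with lower mTERC- tumours was found for 3 members (4.39% of all genes) and with higher ones for 2 (5.75%). These were Ndufb10, Uqcr11 and Atp5pb, all lower in every mTERC- tumour, and Cox6b1 and Atp5c1, both higher in every one.

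**Figure D1:**
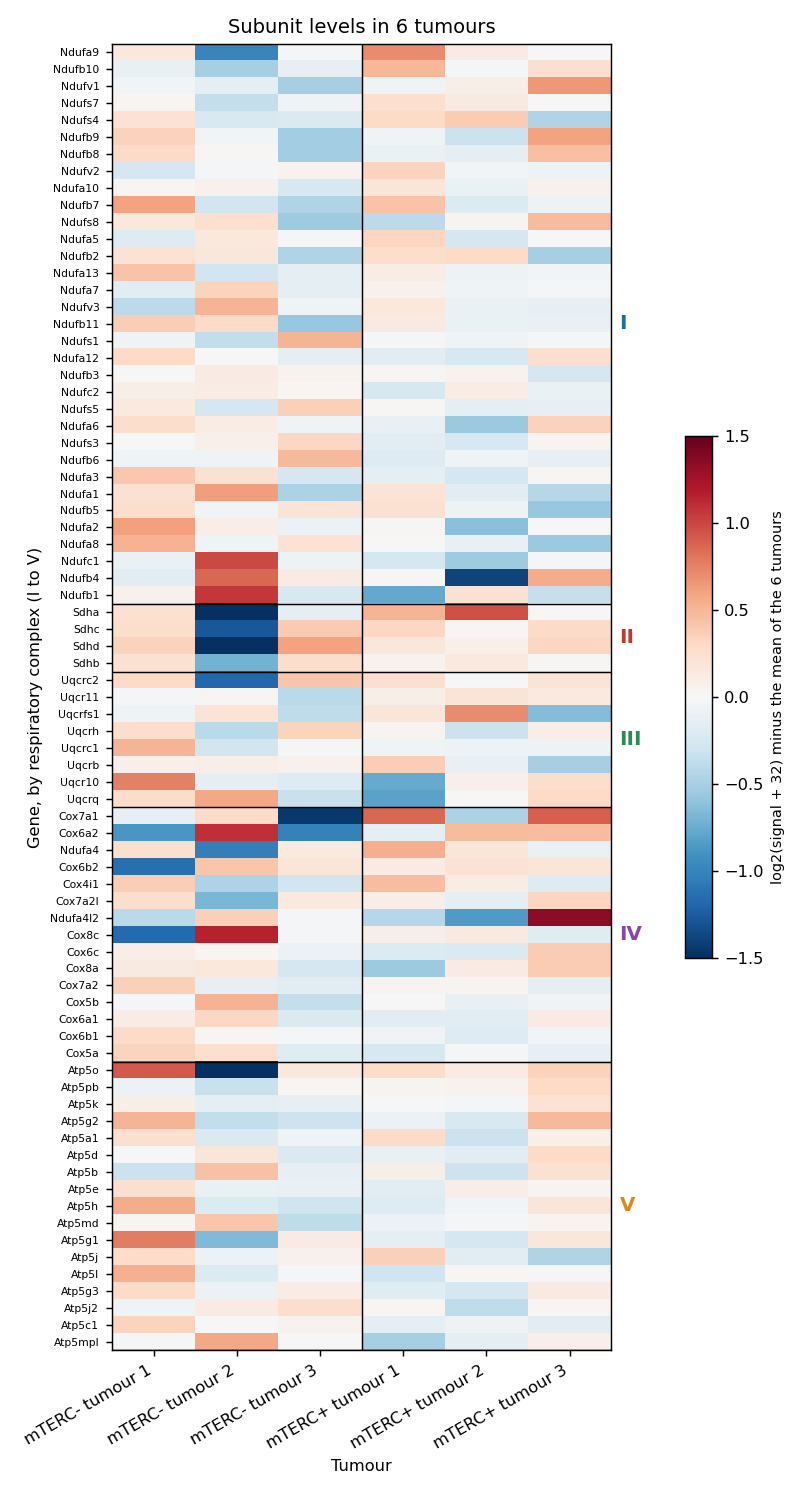
Level of each of the 77 tested subunit genes (rows, by respiratory complex) in the 3 mTERC- and the 3 mTERC+ tumours (columns), as log2(signal + 32) minus the gene's mean over the 6 tumours, with colours ending at 1.5 on either side. The 4 rows of complex II, Uqcrc2, Ndufa4, Ndufa9 and Atp5o are among the darkest blue in mTERC- tumour 2, and the groups do not overlap for 5 of the 77 rows.

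Complex II was the only complex in which all tested genes had a lower mean in mTERC- tumours, with 4 of 4 and a median log2 difference of -0.39. For Sdhb, Sdhc and Sdhd, but not for Sdha, that direction rested on 1 tumour. Sdha, the flavoprotein that oxidises succinate, had signals of 1844, 516 and 1411 in mTERC- tumours 1, 2 and 3, and of 2249.6, 3076 and 1574 in mTERC+ tumours. The groups overlapped only through mTERC- tumour 1 and mTERC+ tumour 3. The means were 1257 ± 677 in mTERC- tumours, against 2299.8 ± 753 in mTERC+ tumours (SD, n = 3 each), and the log2 difference was -0.98 (SE 0.44), with an adjusted p of 0.953 in limma.

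Sdhb, the iron-sulphur subunit, had signals of 6373, 3319 and 6508 in mTERC- tumours, against 5622, 6023 and 5511 in mTERC+ tumours. Sdhc, a membrane anchor that helps form the coenzyme Q site, had 1932, 644 and 2125 in mTERC- tumours, against 1992, 1633 and 1973 in mTERC+ tumours. The other anchor, Sdhd, had 1943, 516 and 2336 in mTERC- tumours, against 1720, 1606 and 1892 in mTERC+ tumours. In all 3 genes mTERC- tumour 2 was the lowest of the 6, and mTERC- tumours 1 and 3 lay within or above the mTERC+ range. The log2 differences were -0.15 (SE 0.34), -0.41 (SE 0.42) and -0.37 (SE 0.46), and none passed in limma (adjusted p of 0.967 to 0.985). The median level of complex II, relative to each gene's mean over the tumours, was -1.39 on the log2 scale in mTERC- tumour 2 and 0.11 to 0.33 in the other 5. Without mTERC- tumour 2 the median log2 difference of complex II was 0.15, with Sdhc at 0.12 and Sdhd at 0.29, whereas Sdha was at -0.45. With mTERC- tumours 2 and 3, whose 18S control signals were low, fitted as a separate block, complex II had a median of 0.11. This value compares mTERC- tumour 1 alone with the mTERC+ tumours. In bulk RNA, fewer cells of a type and less RNA per cell cannot be told apart.

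**Figure D2:**
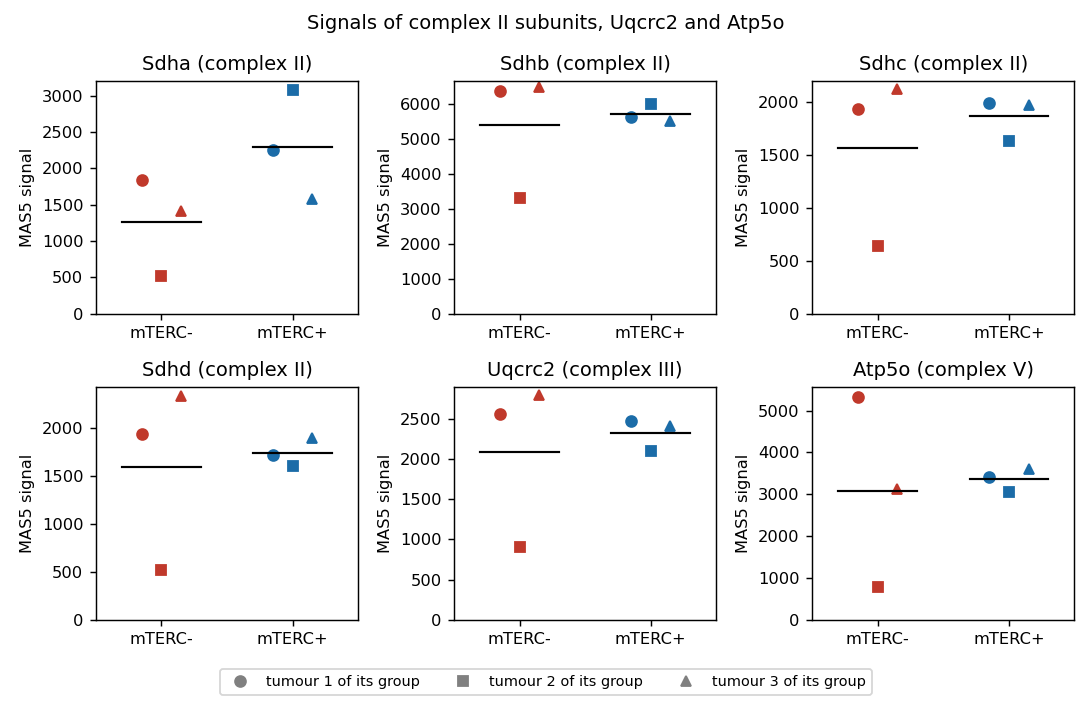
MAS5 signal (vertical axes, linear and starting at 0) of the 4 complex II genes, Uqcrc2 and Atp5o in 3 mTERC- tumours (left, red) and 3 mTERC+ tumours (right, blue), with 1 point per tumour, its shape giving the number of the tumour in its group, and a line at the mean of 3. The square of mTERC- tumour 2 is the lowest point in every panel, at 516 for Sdha and 777 for Atp5o, though further probe sets of Sdha, Sdhd, Uqcrc2 and Atp5o were not the lowest there.

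The low signals of mTERC- tumour 2 reached members of every complex but not most members. That tumour lay below the other 5 for 21 of the 77 members, above them for 16 and within their range for 40. It was the lowest of the 6 for 27.3% of members and for 22.3% of all genes, and the highest for 20.8% of members and 27.2% of all genes. In 10 of the 77 members, or 13.0%, its signal was under 60% of the median of the other 5, against 22.1% of all genes tested, so such low values were no more frequent among the members than in all genes. The 10 were all 4 genes of complex II, 2 each of complexes IV and V, and 1 each of complexes I and III. Atp5o, the subunit that ties the stalk of ATP synthase to its head, had 5332, 777 and 3132 in mTERC- tumours, against 3414, 3064 and 3593 in mTERC+ tumours. Uqcrc2, a core protein of complex III, had 2560, 899.9 and 2797.5 in mTERC- tumours, against 2474, 2094 and 2409 in mTERC+ tumours. The remaining members of the 10 were Ndufa4, Ndufa9, Cox7a2l and Atp5g1. Of the 10 genes, 6 had a further probe set above the level filter, and a further one was also under 60% for 1 of them, Sdhc. For Atp5o the second probe set, 1437164_x_at, had 420 on mTERC- tumour 2, within the 343 to 624 of the other 5, with a log2 difference of 0.25. Without that tumour the log2 difference was 0.28 for Atp5o, against -0.50 with it, 0.20 for Uqcrc2, against -0.31 with it, -0.02 for Ndufa4, against -0.42 with it, and -0.21 for Ndufa9, against -0.56 with it. The same array had the Gapdh 3'/5' ratio of 13.8, and the part of RNA quality in these low signals was not tested.

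Probe sets of the same gene disagreed more on that array than on the others. For 43 members at least 2 probe sets were above the level filter. On each array, a probe set was taken relative to its own mean over the other 5 tumours. The gap of a gene was that between its highest and its lowest probe set. This gap exceeded 1 on the log2 scale for 12 of the 43 genes on mTERC- tumour 2. On mTERC- tumours 1 and 3 it did so for 4 genes each, and on the mTERC+ tumours for 4, 2 and 2. The median gap was 0.58 on mTERC- tumour 2 and 0.20 to 0.31 on the other 5. Some of the 12 gaps came from weak probe sets, such as 1420037_at of Atp5a1 (16.2), 1443495_at of Atp5j2 (26.3) and 1437134_at of Uqcrq (31.1). Those of Ndufv1, Sdha and Uqcrc2 came from stronger ones. The count without weak probe sets is not given. Ndufs8, an iron-sulphur subunit of complex I, was an example among these 12 genes. Its probe sets differed in level on every array. On mTERC- tumour 2, 1423907_a_at had 766, below the 1396 to 2773.7 of the other 5. There 1423908_at had 540, below their 1204.5 to 2338.8. The signal of 1434213_x_at was 929, within their 919.6 to 1966.5. Those of 1455283_x_at and 1434579_x_at were 6204 and 5638, within 3561.8 to 7218.5 and 3309.1 to 6348.1. The weak 1434212_at, at 24.6 to 162 over the tumours, also entered the gap. The gap of Ndufs8 was 0.55 to 1.78 on the other 5 and 2.10 on mTERC- tumour 2. For Uqcrc2 a second probe set, 1435757_a_at, had 1801.5 on that array and 1231 to 2256 on the others, so the low value of the first was not shared. For Sdha the second probe set, 1426689_s_at, had 1157, 940.1 and 934 in mTERC- tumours, against 2389, 1908 and 1032 in mTERC+ tumours, with a log2 difference of -0.72.

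**Figure D3:**
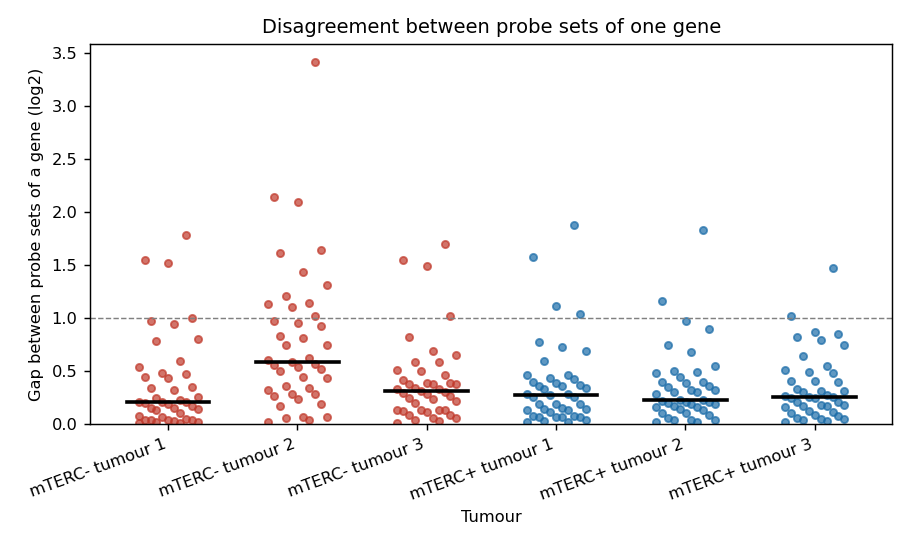
Gap between the highest and the lowest probe set of a gene on each tumour array (vertical axis, log2). Each probe set was taken relative to its mean over the other tumours. There is 1 point for each of the 43 genes with at least 2 probe sets and a line at the median. The points of mTERC- tumour 2 lie higher, with a median of 0.58 and 12 points above the dashed line at 1.

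Over the 6 tumours, all probe sets of a gene gave log2 differences of the same sign for 29 of the 43 genes, and for 2 genes they lay more than 1 apart. Atp5a1, the alpha subunit of ATP synthase, ranged from -1.46 to 0.03. Its lowest probe set, 1420037_at, had weak signals of 139, 16.2 and 23.6 in mTERC- tumours, against 157, 201 and 185 in mTERC+ tumours, whereas 1423111_at was strong at 7801, 5686 and 6318, against 8072, 5287 and 6976. Sdhd ranged from -0.37 to 0.79, the higher value from 1437489_x_at with signals of 108, 303 and 79.7 in mTERC- tumours, against 27.9, 118 and 80.5 in mTERC+ tumours.

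Complex I, the largest complex, showed small differences in both directions. Of its 33 genes, 13 had a lower and 20 a higher mean in mTERC- tumours, and the median log2 difference was 0.06. The 6 core subunits that carry out the redox reactions had a median of -0.11 (4 lower, 2 higher), and the 27 accessory subunits a median of 0.11 (9 lower, 18 higher). Ndufc1, an accessory subunit of the membrane arm, had 3114, 6649 and 3156 in mTERC- tumours, against 2801, 2283 and 3264 in mTERC+ tumours. By this probe set only mTERC- tumour 2 stood clear of the mTERC+ range, and the log2 difference was 0.54 (SE 0.36). The second Ndufc1 probe set, 1416285_at, had 1343, 2379 and 1716 in mTERC- tumours, against 1230, 1247 and 1513 in mTERC+ tumours. There mTERC- tumour 3 was above the mTERC+ range too, and the log2 difference was 0.41. Ndufb10, also of the membrane arm, had 1349, 1022 and 1335 in mTERC- tumours, against 2069.7, 1439.8 and 1718 in mTERC+ tumours. Its groups did not overlap, with a log2 difference of -0.48 (SE 0.32). Ndufa9, which sits near the coenzyme Q site, had 1079.5, 468 and 953 in mTERC- tumours, against 1593, 1049 and 968 in mTERC+ tumours, with a log2 difference of -0.56 (SE 0.38). None of the 3 passed in limma (adjusted p of 0.953 for each). Ndufb1, another accessory subunit, had the highest difference of complex I at 0.59 (SE 0.44), from weak signals of 169, 371 and 131 in mTERC- tumours, against 81.2, 193 and 120.0 in mTERC+ tumours.

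Complex III had 8 tested genes, of which 3 were lower and 5 higher in mTERC- tumours, with a median log2 difference of 0.13. Uqcrq, a small subunit, had 7771, 9604 and 5102 in mTERC- tumours, against 3683, 6414 and 7918 in mTERC+ tumours. These ranges overlapped widely, and the log2 difference was 0.34 (SE 0.37). Uqcr11, another small subunit, had 4823, 5001 and 3706 in mTERC- tumours, against 5241, 5628 and 5446 in mTERC+ tumours. Every mTERC- tumour was below every mTERC+ tumour, by a log2 difference of -0.28 (SE 0.30). The core proteins Uqcrc1 and Uqcrc2 had log2 differences of 0.15 (SE 0.33) and -0.31 (SE 0.41). The adjusted p was 0.967 or above in limma for each of these 4 genes.

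Complex IV had 19 genes on the array and 15 tested, 8 lower and 7 higher in mTERC- tumours, with a median log2 difference of -0.03. Several of its subunits exist as isoforms that differ between tissues. Cox7a1, the heart and muscle isoform, had weak signals of 98.6, 142 and 20.2 in mTERC- tumours, against 227, 70.7 and 232 in mTERC+ tumours. The groups overlapped, and the log2 difference was -0.86 (SE 0.54). Its partner Cox7a2, the isoform of liver and most tissues, had 8747, 6278 and 6047 in mTERC- tumours, against 7056, 7029.8 and 6174 in mTERC+ tumours, a log2 difference of 0.04 (SE 0.31). Cox7a2l, which is built into supercomplexes of the chain, had 3229.6, 1662 and 2987 in mTERC- tumours, against 2891, 2428 and 3359 in mTERC+ tumours.

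Cox6a2, the muscle isoform of subunit VIa, was near the background of the array, at 15.8, 155 and 11.4 in mTERC- tumours and 47.7, 89.9 and 88.3 in mTERC+ tumours. Cox6a1, the common isoform, averaged 15219 ± 2714 in mTERC- tumours and 13795 ± 1609 in mTERC+ tumours. Cox6b1 was at 14193, 11791 and 11529.6 in mTERC- tumours, just above the 11197, 10169 and 11284 of mTERC+ tumours, a log2 difference of 0.20 (SE 0.30). The testis isoforms Cox6b2 and Cox8c were at 16.5 to 109 and 3.6 to 146 in mTERC- tumours, and at 83.5 to 91.5 and 38.7 to 56.1 in mTERC+ tumours. For Cox8a, the common isoform, the means were 2341 ± 361 in mTERC- and 2350.0 ± 725 in mTERC+ tumours, and Cox4i1, the common isoform of subunit IV, averaged 9125 ± 2949 in mTERC- and 10706 ± 2424 in mTERC+ tumours. The untested isoforms Cox4i2, of lung, and Cox8b, of muscle, stayed at 10.9 to 58.5 and 8.8 to 96.8 in mTERC- tumours and at 17.3 to 77.0 and 6.2 to 24.3 in mTERC+ tumours. As a group, the 4 tested muscle and testis isoforms Cox6a2, Cox6b2, Cox7a1 and Cox8c had a median log2 difference of -0.44, and the 10 others, Ndufa4l2 left out, one of 0.04. The striated muscle and brown fat markers summed to 244, 2326 and 1928 in mTERC- tumours and 395 to 466 in mTERC+ tumours, mostly through Actn3; none of the 9 markers was at 0.

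Ndufa4, once assigned to complex I, had 4262, 1749.7 and 3978 in mTERC- tumours, against 5269.8, 4094 and 3348 in mTERC+ tumours, a log2 difference of -0.42 (SE 0.38). Its relative Ndufa4l2, known as a gene induced by low oxygen, had 100.1, 192 and 139 in mTERC- tumours, against 98, 65.2 and 411 in mTERC+ tumours. The high value of mTERC+ tumour 3 left the difference near 0, at -0.05 (SE 0.52). Cox5a, a matrix-facing subunit, had 4819, 4544 and 3369 in mTERC- tumours, against 3212, 3732 and 3487 in mTERC+ tumours, a log2 difference of 0.27 (SE 0.31). None of the complex IV genes passed in limma (adjusted p of 0.953 or above).

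Complex V had 6 genes with a lower and 11 with a higher mean in mTERC- tumours, and a median log2 difference of 0.03. By part of the enzyme, the 5 genes of the catalytic F1 head had a median of 0.00, the 3 genes of the c ring 0.15, the 4 of the peripheral stalk -0.11 and the other 5 membrane subunits 0.19. Atp5mpl, a small membrane subunit, had 1743, 2658 and 1773 in mTERC- tumours, against 1248, 1605 and 1872 in mTERC+ tumours, a log2 difference of 0.37 (SE 0.33). Atp5c1, the gamma subunit that turns within the head, had 10305, 8151 and 8480.3 in mTERC- tumours, against 7389.6, 7772 and 7350.2 in mTERC+ tumours. The groups did not overlap, with a log2 difference of 0.25 (SE 0.30). Atp5pb, the b subunit of the stalk, averaged 2709.9 ± 343 in mTERC- and 3238 ± 340.0 in mTERC+ tumours, a log2 difference of -0.26 (SE 0.31) without overlap. Its other probe set, 1433562_s_at, had 1428, 1408 and 1540 in mTERC- tumours, against 1443, 1440 and 1502 in mTERC+ tumours, and there the groups overlapped. The c subunit is made from 3 genes with the same mature protein. Atp5g1 averaged 5624 ± 2669 in mTERC- and 4727 ± 747 in mTERC+ tumours, Atp5g2 averaged 6211 ± 2306 in mTERC- and 6610.2 ± 1851 in mTERC+ tumours, and Atp5g3 averaged 9274 ± 1185 in mTERC- and 8073 ± 1183 in mTERC+ tumours. Each of these complex V genes had an adjusted p of 0.967 or above in limma. In mTERC- tumour 1, 8 of the 17 complex V genes had their highest signal, and 21 of all 77 members did so (27.3%, against 13.8% of all genes).

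**Figure D4:**
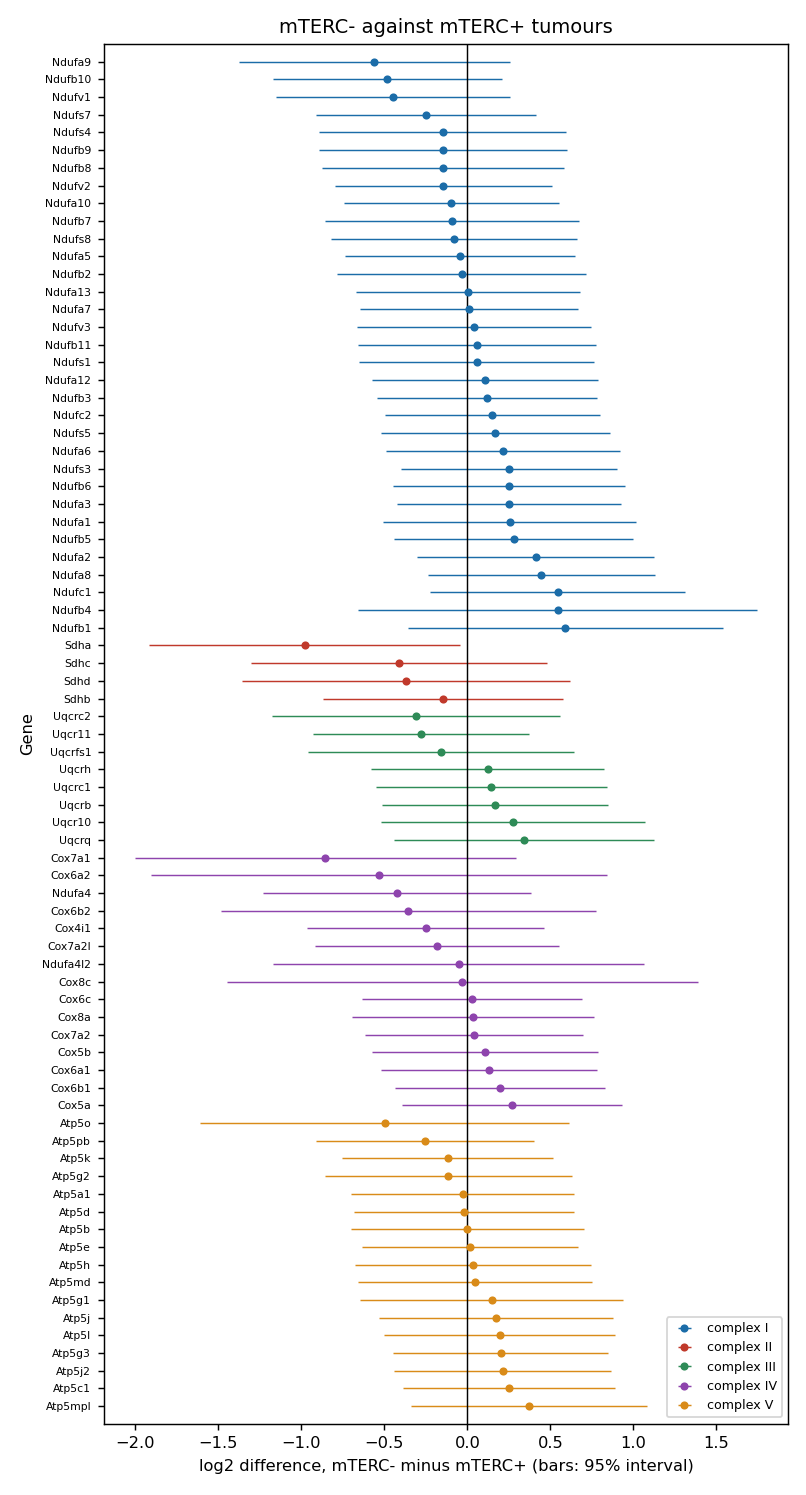
Log2 difference of each tested subunit gene, mTERC- minus mTERC+ (horizontal axis, n = 3 tumours each), with its 95% interval from limma, by complex. Every interval but that of Sdha (-1.92 to -0.04) includes 0, and no adjusted p is below 0.953.

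Other genes of mitochondrial respiration gave a like picture. The only mitochondrially encoded subunit with a probe set of its own symbol was ND5 of complex I, at 11727, 6105 and 19868 in mTERC- tumours, against 22594, 12101 and 23989 in mTERC+ tumours. The ranges overlapped, and the log2 difference was -0.73 (SE 0.42), for which limma gave an adjusted p of 0.953. Of 39 tested assembly factors, 15 were lower and 24 higher, with a median of 0.05. Ttc19, a factor of complex III, had the smallest p of these, at 15.7, 8.0 and 71.7 in mTERC- tumours, against 99.8, 169 and 112 in mTERC+ tumours, a log2 difference of -1.42 (SE 0.55). Of 12 genes of mobile carriers and coenzyme Q synthesis, 3 were lower and 9 higher, with a median of 0.25. Atpif1, an inhibitor of ATP synthase, was at 979.6, 823 and 925 in mTERC- tumours, against 732, 650.4 and 302 in mTERC+ tumours. The 9 tested membrane carriers had a median of 0.00 (4 lower, 5 higher).

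Of the 15 genes of the citric acid cycle, 12 were lower and 3 higher in mTERC- tumours, with a median of -0.06. Suclg1, a subunit of succinyl-CoA synthetase, which makes the succinate that complex II uses, had 1693, 717 and 1082 in mTERC- tumours, against 2017, 1857 and 1725 in mTERC+ tumours. Its groups did not overlap, mTERC- tumour 2 was again the lowest, and the log2 difference was -0.75 (SE 0.36). Among 16 regulators of mitochondrial biogenesis, 6 were lower and 10 higher, with a median of 0.10. Tfb1m, which methylates mitochondrial ribosomal RNA, had 177, 231 and 308 in mTERC- tumours, against 78.4, 96.3 and 45.6 in mTERC+ tumours, a log2 difference of 1.36 (SE 0.41), for which limma gave an adjusted p of 0.901. Esrra, a nuclear receptor that activates respiratory genes, had 109, 37.7 and 26.4 in mTERC- tumours, against 83.7, 162 and 177 in mTERC+ tumours. Ppargc1a, which encodes PGC-1 alpha, had weak signals of 11, 103 and 129.8 in mTERC- tumours, against 133, 83.3 and 129.9 in mTERC+ tumours. The mitochondrial ribosome (76 genes) had a median of 0.13 and the cytosolic ribosome (45 genes) one of 0.02. None of these genes passed in limma over all genes tested.

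The second comparison asked how the subunits differed in liver after the TRF2DBDM virus, with 1 array per group and so no test and no replicate check. Most subunits had a somewhat higher signal on the TRF2DBDM array, and none differed strongly. Of 78 members, 73 reached the median signal of 1 or both arrays and were compared. Of these, 66 were higher in TRF2DBDM and 7 lower, where 52.0% of all 7788 genes compared were higher. The median log2 ratio of signal plus 32, TRF2DBDM over GFP, was 0.41, or 1.33-fold, against 0.02 over all genes. A log2 ratio above 0.5 was found for 29 members, against 17.2% of all genes. A 2-fold higher signal was found for 0 members, against 4.62% of all genes, and a 2-fold lower one also for 0, against 2.90%. Centring both arrays on their median moved the median of all genes to -0.09 and that of the members to 0.30, with 61 of 73 higher.

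Hepatocyte markers were higher by a like amount. Of 9 compared, 8 were higher in TRF2DBDM, with a median log2 ratio of 0.40, and their signals summed to 56009 in TRF2DBDM and 39425 in GFP. Of 7 compared macrophage markers 5 were higher, with a median of 1.16 and sums of 2497 in TRF2DBDM and 1715 in GFP over the 10 markers. No marker of either list was at 0, although Clec4f, a marker of the macrophages of the liver, was at 5.5 in TRF2DBDM and 6.4 in GFP. Of 6 compared stellate and fibroblast markers 6 were higher, with a median of 0.36, and of 7 endothelial markers 6 were higher, with a median of 0.17. Neutrophil, cholangiocyte and erythroid markers had lower sums. Of 6 compared neutrophil markers 3 were higher, with a median of -0.22 and sums of 1516 in TRF2DBDM and 2050 in GFP. The cholangiocyte markers summed to 110 in TRF2DBDM and 177 in GFP, and the erythroid markers to 123 in TRF2DBDM and 170 in GFP. The part of cell make-up in the subunits' ratios was not tested.

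Complex II had the highest median ratio of the 5 complexes, at 0.59 over its 4 genes. Sdhc had a signal of 737 in TRF2DBDM and 394 in GFP, a log2 ratio of 0.85, and Sdha had 1419 in TRF2DBDM and 871 in GFP, a log2 ratio of 0.68. Sdhb had 2527 in TRF2DBDM and 1792 in GFP, and Sdhd had 2006 in TRF2DBDM and 1527 in GFP, with log2 ratios of 0.49 and 0.39. All 4 genes were thus higher, by less than 2-fold. Second probe sets gave smaller log2 ratios for Sdhc (0.31) and Sdha (0.35), and a larger one for Sdhd (0.73) from weak signals. The median of 0.59 is that of the probe sets that represent the genes.

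In complex I, 31 of 32 genes were higher in TRF2DBDM, with a median log2 ratio of 0.49. The 6 core subunits were all higher (median 0.44), as were 25 of the 26 accessory subunits (median 0.49). Ndufa9 had the highest ratio, with 1052 in TRF2DBDM and 635 in GFP (log2 ratio 0.70), followed by Ndufc2, an accessory subunit of the membrane arm, with 1053 in TRF2DBDM and 656 in GFP (0.66). By the probe sets that represent the genes, the exception was Ndufb1, with weak signals of 60 in TRF2DBDM and 85 in GFP (-0.35). By the probe set that represents it, Ndufa3 was nearly level, with 2703 in TRF2DBDM and 2544 in GFP. The log2 ratio of 0.09 became -0.03 after median centring. Its second probe set, 1428464_at, had 2416 in TRF2DBDM and 1729 in GFP (0.48). Further probe sets were lower in TRF2DBDM for some genes counted as higher. For Ndufb9, 1436803_a_at had 2003 in TRF2DBDM and 2215 in GFP (-0.14). For Ndufa12, 1418814_s_at had 648 in TRF2DBDM and 889 in GFP (-0.44). Ndufs8 (1423907_a_at, -0.03) and Ndufs4 (the weak 1438166_x_at, -0.27) had such a probe set too.

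Complex III was less uniform, with 6 of 8 genes higher and a median of 0.21. Uqcr11 had 1254 in TRF2DBDM and 793 in GFP (log2 ratio 0.64), and Uqcrb, a small subunit needed for assembly of the complex, had 5726 in TRF2DBDM and 3905 in GFP (0.55). Uqcrh, the acidic hinge protein that helps dock cytochrome c, had the lowest ratio of all members, with 630.3 in TRF2DBDM and 819.8 in GFP (-0.36). Uqcrc1 had 2206 in TRF2DBDM and 2228 in GFP (-0.01).

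In complex IV, 11 of 12 compared genes were higher, with a median of 0.34. Cox6c had the highest ratio of all members, with 947 in TRF2DBDM and 493 in GFP (log2 ratio 0.90), but its second probe set gave 0.25. Cox6a2, the muscle isoform, had weak signals of 117 in TRF2DBDM and 51.6 in GFP (0.84), and the common isoform Cox6a1 had 6104 in TRF2DBDM and 4825 in GFP. Cox4i1 had 3405 in TRF2DBDM and 3509 in GFP (-0.04), and Cox5a had 2889 in TRF2DBDM and 2846 in GFP (0.02, and -0.09 after median centring). The isoforms Cox4i2, Cox6b2, Cox7a1 and Cox8b were below the level for comparison, at 38.2, 28.8, 30.4 and 4.4 in TRF2DBDM and 34.3, 44.6, 24.4 and 2.8 in GFP.

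In complex V, 14 of 17 genes were higher, with a median of 0.32. The peripheral stalk (4 of 4 higher, median 0.41) and the membrane subunits outside the c ring (4 of 5 higher, median 0.43) had higher medians than the F1 head (3 of 5 higher, median 0.14) and the c ring (3 of 3 higher, median 0.09). Atp5l, the membrane subunit g, had 948 in TRF2DBDM and 576 in GFP (log2 ratio 0.69), and Atp5pb had 1174 in TRF2DBDM and 755 in GFP (0.62). Atp5b, the catalytic beta subunit, had 2836 in TRF2DBDM and 2962 in GFP (-0.06). Atp5mpl had 657 in TRF2DBDM and 807 in GFP (-0.28), opposite in sign to its tumour difference of 0.37. The 3 c subunit genes were nearly level or slightly higher, with Atp5g1 at 2415 in TRF2DBDM and 1798 in GFP, Atp5g2 at 1948 in TRF2DBDM and 1942 in GFP, and Atp5g3 at 5434 in TRF2DBDM and 5100.0 in GFP.

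**Figure D5:**
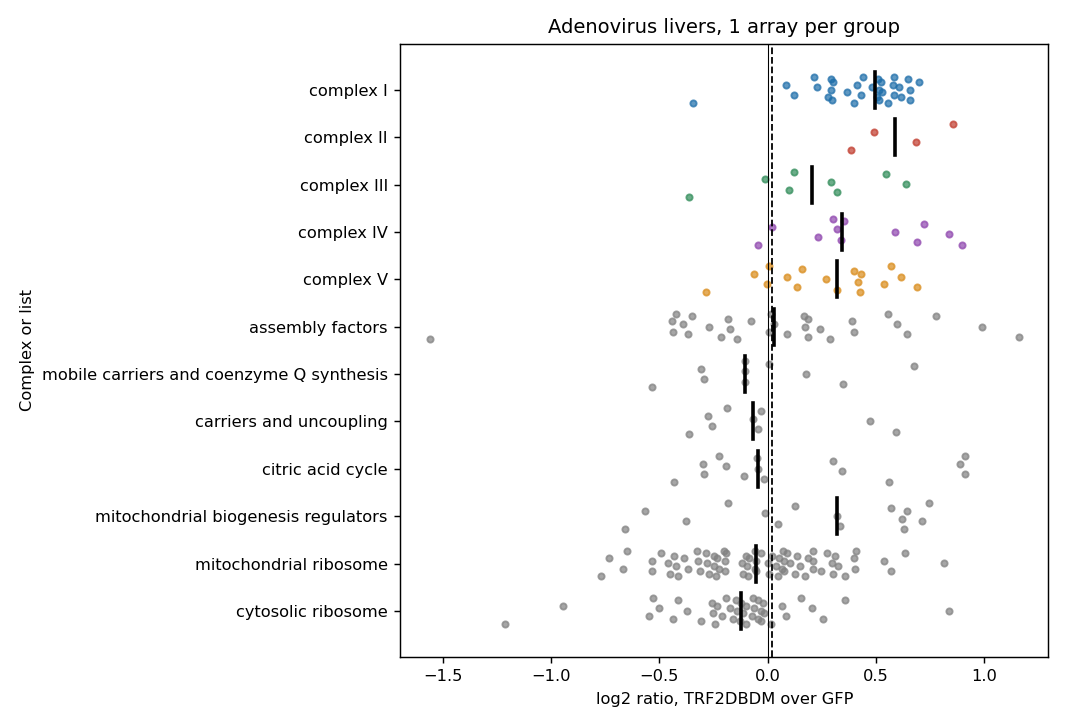
Log2 ratio of signal plus 32, TRF2DBDM over GFP (horizontal axis, 1 array per group), of each compared gene of the 5 respiratory complexes and of 7 other lists (rows), with bars at the list medians and a dashed line at the median of all genes. The subunits of complexes I to V lie mostly to the right of the line, at medians of 0.21 to 0.59, while the mitochondrial ribosome and the citric acid cycle centre near it.

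Other mitochondrial lists had lower medians than the subunits on this pair of arrays. The mitochondrial ribosome had 34 of 74 genes higher in TRF2DBDM (median -0.06), the citric acid cycle 6 of 15 (-0.04), the membrane carriers 2 of 9 (-0.07), mobile carriers and coenzyme Q synthesis 4 of 10 (-0.10) and the assembly factors 18 of 31 (0.03). Within the citric acid cycle, Dld, a dehydrogenase component shared by several complexes, had 61.8 in TRF2DBDM and 17.9 in GFP (log2 ratio 0.91). The assembly factors spread widely, with Tmem70, a factor of ATP synthase, at 151 in TRF2DBDM and 49.7 in GFP (1.16) and Cox16, a factor of complex IV, at 53.4 in TRF2DBDM and 219.7 in GFP (-1.56). Among the regulators of mitochondrial biogenesis 10 of 15 were higher, with a median of 0.32. The coactivator genes Ppargc1a and Ppargc1b had 60.5 and 99.4 in TRF2DBDM, against 24.4 and 46.4 in GFP, with log2 ratios of 0.71 and 0.75. Esrra was lower, with 97.7 in TRF2DBDM and 172.5 in GFP (-0.66). The cytosolic ribosome had 8 of 41 genes higher (median -0.12), and ND5 had 7830.2 in TRF2DBDM and 6583 in GFP (0.25).

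For 58 members the same probe set represented the gene on both array types. Of these, 31 were higher both in mTERC- tumours and in TRF2DBDM liver, 2 were lower in both, 21 were higher only in TRF2DBDM and 4 only in mTERC- tumours. The same counts over all genes are not given, and most members were higher in TRF2DBDM, so the 31 cannot be read as a shared change. Across these 58 genes, which are not independent of each other, Spearman's rho between the tumour differences and the liver ratios was -0.29. No rho over all genes is set beside it. Complex II had all 4 genes higher in TRF2DBDM liver and all 4 lower in the mean of the mTERC- tumours, where the sign for Sdhb, Sdhc and Sdhd rested on mTERC- tumour 2.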

How the data were processed

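Expression was measured on 8 Affymetrix arrays. The deposited values are MAS5 signal intensities on a linear scale, made by the authors with MAS5 (submitters' processing notes; version not given in the sources used here) from biotin-labelled cRNA (labels). The 6 tumour arrays and the 2 adenovirus arrays were of different types and were analysed apart. Only probe sets annotated to 1 symbol entered, all member symbols matched a RefSeq gene table, and of several probe sets for a gene the one with the highest mean level was taken. Levels were log2(signal + 32). Tumours were compared in limma 3.58.1 (R 4.3.3, lmFit and eBayes with a variance trend, two-sided, Benjamini-Hochberg over 11979 genes). The adenovirus arrays were compared by ratio only. The limma code was tested on simulated data.

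In each complex, the text names the 3 tumour genes of smallest p, the 2 highest and 2 lowest adenovirus ratios, isoform families, genes with discordant probe sets and members of related lists. Ndufb1 (tumours), Ndufs8, Cox6b1, Atp5pb and Uqcrc1 (tumours), Ndufa9 and Atp5o among the low genes, the genes without overlap and the level of 60% were chosen after their values were seen. Members and lists were chosen with earlier results of these data known. Alternatives were other normalizations, pseudocounts, filters and probe-set rules, array weights, an 18S block and leaving out each tumour.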

Additional observations from a re-analysis of the deposited data

How the results depend on the processing

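The count of tumour members called was 0 under all 17 alternatives run. The number of members without overlap between the groups was 5 as reported, or 6.49%, against 10.1% of all genes. It was 9 after quantile normalization, 2 after median centring and 12 of 143 over all probe sets. With a tumour left out it was 10 to 18, where fewer samples make overlap rarer. The share over all genes is not given under these alternatives, so their counts cannot be read against it. The number with a lower mean in mTERC- tumours, 34 as reported, was 63 of 143 over all probe sets and 21 with a block for the 18S control, under which the median log2 difference was 0.16; the block leaves mTERC- tumour 1 as the only mTERC- tumour set against the mTERC+ group. Signs turned positive with that block for Sdhc (0.055), Sdhd (0.16), Uqcrc2 (0.14), Ndufa4 (0.033) and Atp5o (0.67). They did so without mTERC- tumour 2, when leaving out each tumour in turn gave log2 differences of -0.71 to 0.12 for Sdhc, -0.77 to 0.29 for Sdhd, -0.60 to 0.20 for Uqcrc2 and -1.08 to 0.28 for Atp5o, and with the mean of its probe sets for Sdhd (0.21). The cause was not tested. In the adenovirus pair, 1 member was at least 2-fold higher with a pseudocount of 1 and 1 of 131 probe sets was so over all probe sets, where 118 of 131 were higher. No paired analysis was possible because the labels give the tumours no shared replicate numbers and the adenovirus groups have 1 array each.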

Other observations

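Member genes were also split by the motifs in their promoters, as a description without a test. In the adenovirus pair the median log2 ratio, TRF2DBDM over GFP, was 0.36 for the 39 compared genes with at least 1 of the NRF1, ETS and YY1 motifs and 0.51 for the 21 without. By single motif it was 0.34 with and 0.42 without for NRF1 (21 and 39 genes), 0.39 with and 0.42 without for ETS (17 and 43 genes), and 0.53 with and 0.39 without for YY1 (9 and 51 genes). In the tumours the median log2 difference, mTERC- minus mTERC+, was 0.04 for the 40 tested genes with any of the motifs and 0.01 for the 23 without.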
